A study of Mus musculus with 2 samples.

Results

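Nkx6.1 binding sites were described around Nkx2-2, Foxa2, Pax6 and Isl1, 4 genes for transcription factors that are active across the endocrine cell types of the pancreatic islet. The sites came from chromatin immunoprecipitation and sequencing (ChIP-seq) of 1 set of islets taken from a normal mouse, with 1 library made with an antibody to Nkx6.1 and 1 input library, which is chromatin sequenced with no antibody step. The ChIP library is labelled with a C57Bl/6 background. No allele, treatment, age or sex is named. Islets hold several cell types, and both libraries came from whole islets, so the binding could not be assigned to a cell type here. A site was counted for a gene when the centre of its listed peak lay in a window reaching about 100 kb to either side of that gene in the mm9 genome build. This rule found 22 of the 15239 listed peaks, and each of the 4 windows held some.

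Nkx6.1 is a homeodomain protein that beta cells, the insulin-producing cells of the islet, need to form and to keep their identity, and it is known mainly as a repressor. It binds DNA through a motif built on the homeodomain core TAAT. Nkx2-2 is a homeodomain factor needed for beta cell formation, Foxa2 a forkhead factor that opens chromatin in gut and pancreas, Pax6 a paired-box and homeodomain factor of all islet endocrine cells, and Isl1 a LIM-homeodomain factor needed for endocrine maturation. The data hold no RNA levels, so the activity of these genes and the cell makeup of the islets were not checked here.

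Values are given as tags, which are sequenced reads placed on the genome. Each listed peak is 133 bp wide. The width over which tags were counted for the input comparison is not given, so a count need not be that of those 133 bp. The ChIP library held 202780986 tags, and the peaks of the whole list had a median of 172 ChIP tags (interquartile range 134 to 242). A peak had to exceed input 4-fold to be listed. The peak caller replaced low input counts by a minimum of 21.4 tags, so no site under 109 ChIP tags could enter, and for a peak at that minimum the deposited fold over input is a lower limit. Folds over input and over the local region are the authors' own values for each peak. Intervals are at 95%, cover counting error only and carry no information on other mice, as each group has 1 library, and no test between conditions was possible.

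The windows together held more peaks per Mb than the genome as a whole. The Pax6 window held 7, the Foxa2 window 6, the Nkx2-2 window 5 and the Isl1 window 4, which together gave 25.9 peaks per Mb (exact Poisson interval 16.2 to 39.2) against 5.97 per Mb over the nuclear chromosomes. When the nuclear chromosomes were tiled into 12154 windows of 210 kb, 53.9% held at least 1 peak and 10.2% held 4 or more. With tiles as wide as each window, at least 7 peaks were found in 1.84% for Pax6, at least 6 in 2.48% for Foxa2, at least 5 in 5.41% for Nkx2-2 and at least 4 in 10.2% for Isl1. The tiles were not matched for gene content or for sequence in which reads can be placed, and the windows were chosen with the list known, so these shares are a description. For Isl1 alone the density of 19.0 per Mb had an interval of 5.19 to 48.8, which includes the rate of the whole list. The Poisson intervals treat peaks as falling independently, which neighbouring peaks need not do, so they may be too narrow. Setting them beside the rate of the list is no test of any gene or of the 4 windows together. The Poisson intervals of the 4 counts overlapped, from 1.09 to 10.2 peaks for Isl1 and from 2.81 to 14.4 for Pax6, and their order was not resolved.

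**Figure D1:**
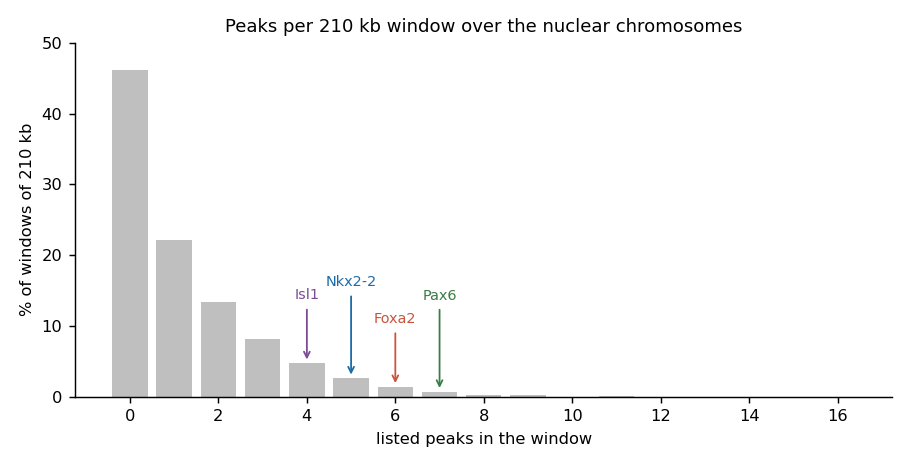
Share of windows of 210 kb, tiled over the nuclear chromosomes, by the number of listed peaks they hold (bars, percent of 12154 windows), with arrows at the counts of the 4 gene windows, which are 200 to 230 kb wide. The 4 genes sit at 4 to 7 peaks, in the thin right part of a distribution in which 53.9% of windows hold any peak.

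The peaks of these windows held 110 to 527 ChIP tags with a median of 227, and 17 of 22 lay above the median of the list. Their deposited fold over input ran from 4.05 to 14.8, with a median of 7.41 against 5.63 for the whole list. Of the 22 peaks, 10 reached 8-fold, or 45.5% (exact binomial interval 24.4 to 67.8), against 24.1% of all listed peaks. Of these 10, 6 were Pax6 peaks. The binomial intervals treat peaks as independent draws. Peaks of 1 library in 4 windows chosen with the list known are not, so the intervals are no test of the genes. None of the 22 reached 20-fold, which 2.32% of all listed peaks did, so a count of 0 is near the share of the list. Input stood at the minimum for 15 of 22, or 68.2% (45.1 to 86.1), against 67.1% of the whole list. By gene, 8-fold was reached by 6 of 7 Pax6 peaks, 2 of 5 Nkx2-2 peaks, 1 of 6 Foxa2 peaks and 1 of 4 Isl1 peaks, a difference that was not tested.

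**Figure D2:**
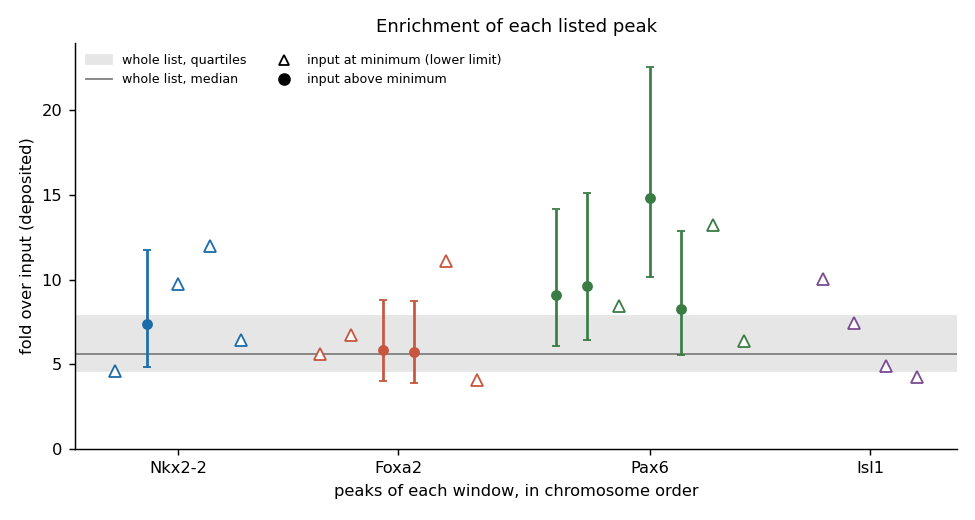
Deposited fold over input of each of the 22 peaks, grouped by gene in chromosome order. Filled circles have input above the minimum and carry exact conditional intervals, open triangles are lower limits against the minimum input, and the grey band and line are the quartiles and median of the whole list. The Pax6 peaks all lie above the list median of 5.63, while Foxa2, Nkx2-2 and Isl1 have members on both sides of it.

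As the gene table at hand belongs to another build (GRCm38), the place of each gene in mm9 was read from the rule itself. Taking 100 kb off both ends of a window leaves the gene span to about 10 kb, and for Foxa2, a short gene, it leaves a point. For Nkx2-2 it leaves chr2:147000000-147010000, shorter than the 18.95 kb of the gene in RefSeq. The side given for a peak close to a span edge is thus approximate. The direction of each gene was taken from the RefSeq annotation of GRCm38.p6. Of the 22 peaks, 5 lay in a gene span, 6 upstream and 11 downstream. The side on which they lay differed from gene to gene.

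**Figure D3:**
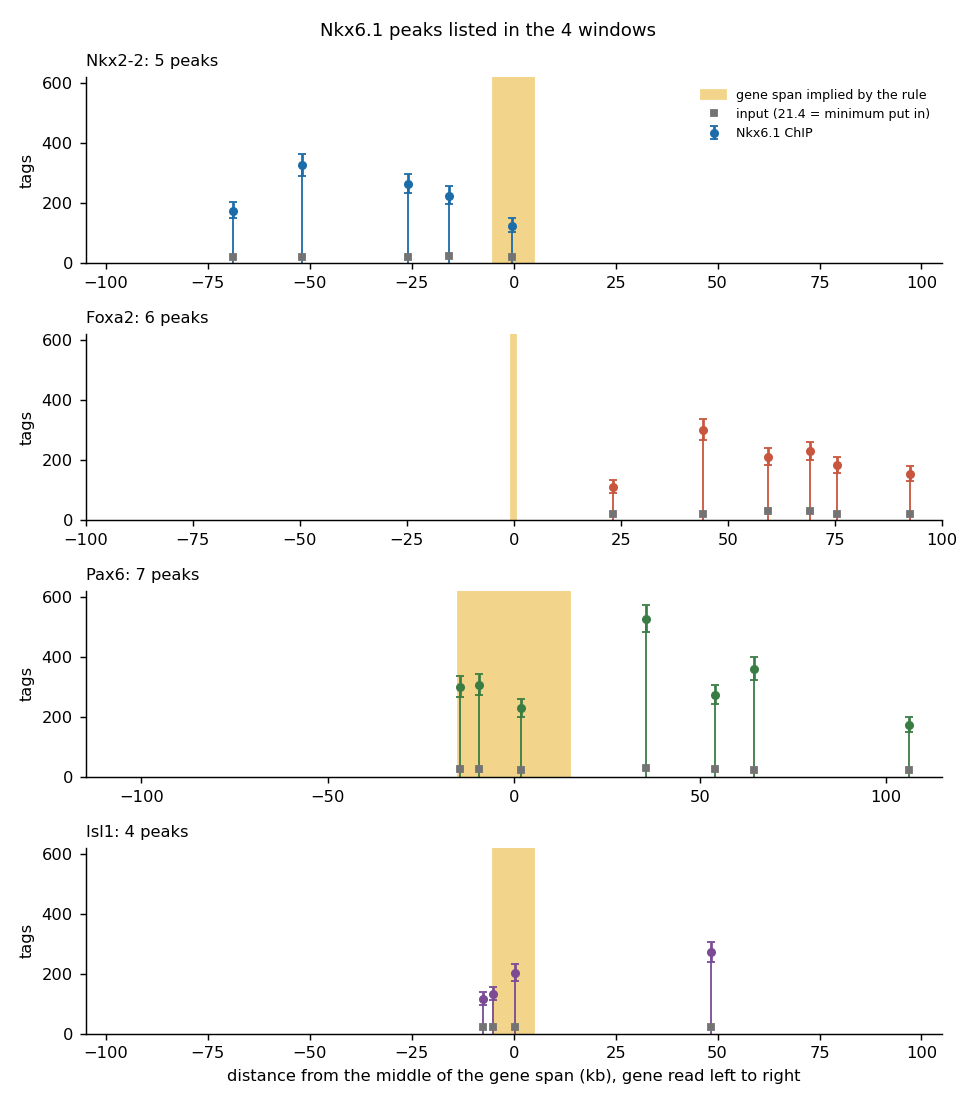
ChIP tags (coloured points with exact Poisson intervals) and input tags (grey squares) of the listed peaks, by distance in kb from the middle of the gene span, with each gene drawn so that it reads left to right and the span shaded. The Nkx2-2 peaks spread from the gene to its upstream side, the 6 Foxa2 peaks lie downstream, the Pax6 peaks lie in the gene and downstream, and 3 of the 4 Isl1 peaks crowd at the gene.

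Around Pax6 (window chr2:105410000-105640000) 3 peaks lay in the gene span and 4 beyond its 3′ end, with none upstream of the span as read from the rule. The first peak lay close to the upstream edge of that span, so its side is not resolved. The first, at chr2:105510522-105510654, held 300 ChIP tags (267 to 336) over 26 input tags, at 9.10-fold (6.09 to 14.2 by the exact conditional method). Its neighbour, 5.20 kb on at chr2:105515717-105515849, held 306 tags (273 to 342) over 25 input tags, at 9.65-fold (6.41 to 15.1). These neighbours at the start of the span were alike within counting error. The third, at chr2:105527034-105527166, had 229 tags (200 to 261) and at least 8.43-fold over the minimum input.

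The strongest of all 22 peaks lay 20.4 kb beyond the Pax6 span, at chr2:105560353-105560485. It held 527 ChIP tags (483 to 574) over 28 input tags, with a fold of 14.8 (10.1 to 22.5), and ranked 478 in the list by score. More tags were counted there than at 96.6% of listed peaks, and its tag interval cleared those of the other 21, although its fold interval overlapped those of other Pax6 peaks. Farther downstream, the peak at chr2:105579121-105579253 held 273 tags (242 to 307) at 8.28-fold. The peak at chr2:105589444-105589576, 10.3 kb from the last, held 359 tags (323 to 398) at 13.2-fold or more. The outermost, 91.3 kb from the span at chr2:105631231-105631363, was the weakest of the Pax6 group with 173 tags (148 to 201) and 6.37-fold. The strongest Pax6 peak thus held 3.05 times the tags of the weakest (2.56 to 3.64).

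In the RefSeq annotation, Elp4, which encodes a subunit of the Elongator complex, overlaps the 3′ end of Pax6 and reaches 206 kb beyond it. This side is known to carry distant regulatory elements of Pax6 within Elp4. On the other side, where no listed peak lay beyond the span as read from the rule, lie the long noncoding RNAs Paupar and Pax6os1. The latter overlaps Pax6 and reaches 133 kb upstream. The window edge cut closely on the downstream side, where the next peak centre fell 0.112 kb outside with 228 tags at 7.19-fold. On the upstream side the next peak lay 18.7 kb outside, with 203 tags at 7.47-fold.

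The starts of Pax6 are shown since peaks lay in the gene span. These are the 250 bases before each of its RefSeq starts in GRCm38.p6, on the plus strand, 5′ to 3′, at chr2:105668646-105668895 and chr2:105682213-105682462, with TAAT on either strand in capitals.
Pax6 start 1: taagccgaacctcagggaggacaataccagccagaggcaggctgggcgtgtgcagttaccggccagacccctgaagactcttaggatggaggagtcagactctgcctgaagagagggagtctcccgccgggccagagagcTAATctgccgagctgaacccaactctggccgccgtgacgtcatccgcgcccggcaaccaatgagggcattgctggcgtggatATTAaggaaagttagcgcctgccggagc
Pax6 start 2: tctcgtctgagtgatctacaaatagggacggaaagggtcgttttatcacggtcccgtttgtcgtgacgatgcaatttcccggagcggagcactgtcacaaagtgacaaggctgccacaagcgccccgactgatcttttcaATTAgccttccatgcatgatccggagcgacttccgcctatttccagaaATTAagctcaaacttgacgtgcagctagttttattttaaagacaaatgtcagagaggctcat
Both stretches hold 2 copies of the core, the nearest ending 24 and 58 bases before the start. Whether an mm9 peak overlaps these bases was not determined, as no position was carried between builds.

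Around Nkx2-2 (window chr2:146900000-147110000) the peaks ran from the gene span to the upstream side, and the downstream side held none. The peak in the span, at chr2:147005245-147005377, was the weakest with 125 ChIP tags (104 to 149) and 4.60-fold over the minimum input. The peak at chr2:147020881-147021013, 10.9 kb upstream, held 225 tags (197 to 256) over 24 input tags, at 7.39-fold (4.84 to 11.8). It was followed 10.02 kb on by the peak at chr2:147030899-147031031, with 264 tags (233 to 298) at 9.72-fold or more. These intervals overlapped each other but not that of the peak in the gene.

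The strongest Nkx2-2 peak, at chr2:147056929-147057061, lay 47.0 kb upstream and held 326 tags (292 to 363), at least 12.0-fold over input. The fifth, at chr2:147073871-147074003 and 63.9 kb upstream, fell back to 175 tags (150 to 203) and 6.44-fold. The strongest held 2.61 times the tags of the weakest (2.12 to 3.23). No 2 peaks in this window lay within 10 kb of each other. In the RefSeq annotation this upstream side is spanned by Nkx2-2os, a long noncoding RNA that overlaps Nkx2-2 and reaches 136 kb upstream. Nkx2-4, a related homeodomain gene, lies 91.0 kb downstream, on the side with no listed peak. The nearest peaks outside the window were 49.9 kb below it, with 210 tags, and 21.2 kb above it, with 233 tags.

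The Nkx2-2 start is shown for the peak in its gene span, as 250 bases before the RefSeq start in GRCm38.p6 at chr2:147186403-147186652, minus strand, 5′ to 3′, with the core in capitals.
Nkx2-2 start: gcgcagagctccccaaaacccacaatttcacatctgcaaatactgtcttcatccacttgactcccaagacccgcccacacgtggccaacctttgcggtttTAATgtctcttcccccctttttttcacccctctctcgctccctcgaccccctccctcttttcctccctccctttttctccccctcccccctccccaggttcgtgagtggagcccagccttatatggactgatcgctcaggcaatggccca
It holds a single copy of TAAT, which ends 146 bases before the start and is preceded by T.

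Around Foxa2 (window chr2:147770000-147970000) all 6 peaks lay on the downstream side and none within 20 kb of the gene. The closest, 23.1 kb away at chr2:147846835-147846967, had the fewest ChIP tags of the 22, 110 (90.4 to 133), and the lowest fold over input. That fold was 4.05, barely above what the caller requires. Its tag interval overlapped that of the weakest Isl1 peak (94.9 to 138), which had the lower score (115 against 116). The strongest followed at chr2:147825705-147825837, 44.2 kb away, with 301 tags (268 to 337) and at least 11.1-fold. The interval of this peak cleared those of the other Foxa2 peaks.

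A group of 3 Foxa2 peaks, each within 10 kb of the next, lay 59.5 to 75.5 kb from the gene. In this group the peak at chr2:147810473-147810605 held 210 tags (183 to 240) over 29 input tags, at 5.71-fold (3.86 to 8.73). The peak at chr2:147800626-147800758 held 229 tags (200 to 261) over 31 input tags, at 5.82-fold (3.99 to 8.77). The peak at chr2:147794436-147794568 held 182 tags (157 to 210) with input at the minimum, at 6.70-fold. These tag intervals overlapped, which does not show that the counts are equal, and the differences within the group were not tested. The outermost peak, at chr2:147777466-147777598, held 153 tags (130 to 179) at 5.63-fold. The strongest Foxa2 peak held 2.74 times the tags of the weakest (2.19 to 3.44).

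The stretch downstream of Foxa2 is occupied in the RefSeq annotation by 9030622O22Rik, a long noncoding RNA 96.1 kb long whose near end lies 2.36 kb from the gene and which is its only annotated neighbour on that side within 100 kb. On the upstream side no peak was listed for 408 kb, counted from the closest Foxa2 peak across the gene to the next listed peak, and 9.42% of the 15217 gaps between listed peaks were as long. On the downstream side the next peak lay 9.24 kb outside the window, with 174 tags at 6.40-fold, beside the 153 tags of the outermost member. As no peak lay near the gene, its starts are not printed.

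Around Isl1 (window chr13:116990000-117200000) 3 of the 4 peaks lay at the gene. The peak at chr13:117094639-117094771, within the span, held 202 ChIP tags (175 to 232) at 7.43-fold. The peak at chr13:117099937-117100069, at the upstream end of the span, held 133 tags (111 to 158) at 4.89-fold. The peak at chr13:117102487-117102619, 2.55 kb farther upstream, held 115 tags (94.9 to 138) at 4.23-fold. The first of these exceeded both others beyond counting error, while the others overlapped. Which of them covers the start of Isl1 is not resolved, as the span is known only to about 10 kb.

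The strongest Isl1 peak was the distant one, at chr13:117046511-117046643 and 43.4 kb downstream, with 272 tags (241 to 306) and 10.01-fold over the minimum input. Its tags were 2.37 times those of the weakest (1.90 to 2.97). All 4 Isl1 peaks had input at the minimum, so their folds are lower limits. These peaks stood alone in a wide region. The next listed peaks lay 521 kb below and 299 kb above the window, and these outer peaks were 1030 kb apart. Counted from the Isl1 peaks, the gaps were 578 kb below and 397 kb above. Of the gaps between listed peaks, 6.01% and 9.76% were as long. The RefSeq annotation places no other gene within 100 kb of Isl1.

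The Isl1 start is shown for the peaks at the gene, as 250 bases before the RefSeq start in GRCm38.p6 at chr13:116309689-116309938, minus strand, 5′ to 3′, with the core in capitals.
Isl1 start: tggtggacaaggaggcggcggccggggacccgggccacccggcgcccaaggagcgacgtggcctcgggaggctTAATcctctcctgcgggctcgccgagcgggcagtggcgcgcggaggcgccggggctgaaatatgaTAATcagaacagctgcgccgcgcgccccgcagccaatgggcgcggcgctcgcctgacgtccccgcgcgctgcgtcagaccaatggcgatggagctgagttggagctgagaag
It holds 2 copies of TAAT in a stretch that is 71.2% G and C, the most of the 7 starts.

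The promoter table matched all 4 genes, with 7 starts in all. TAAT, searched on both strands as TAAT or ATTA, occurred in the 250 bases before 6 of the 7, and in 54.9% of 32851 promoters of that length. The longer TTAAT (or ATTAA), which contains TAAT, occurred before 5 of the 7 starts and in 24.9% of promoters. The palindrome TAATTA, which also contains TAAT, occurred before none of the 7 and in 4.84% of promoters. Starts of a gene are not independent of each other, and the letters are a description of these stretches, not sites of binding.

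The stretches around the peaks at the genes also carried ChIP tags. The caller gives each peak a fold over the ChIP tags of the surrounding 10000 bp, and dividing the tags of a peak by that fold gives a surrounding level on the scale of the tag count of the peak. The width over which those tags were counted is not given in the sources, so the level is not a density per base. In the whole list the level had a lowest value of 13.48 and a 10th percentile of 13.55, so part of the list lies close to that lowest value. The surrounding level was chosen as a measure after the values were seen. The surrounding level was 23.5 to 40.4 tags (median 28.5) for the 7 peaks in or within 10 kb of a gene span, against a median of 17.2 and a 90th percentile of 24.7 in the whole list. Listed peaks near other genes were not set apart, so whether such a level is particular to these genes was not tested. The 15 peaks farther out had 14.1 to 28.2 tags (median 19.96), so the ranges overlapped. Of the near peaks 6 of 7 exceeded the 90th percentile of the list, and of the far ones 2 of 15, both at Nkx2-2. The near peaks were 3 at Pax6, 3 at Isl1 and 1 at Nkx2-2, while all 6 Foxa2 peaks were far. The split by distance is thus partly a split by gene. At Nkx2-2 the order was mixed, as the peak in the span had 23.5 tags and the upstream ones 28.2, 15.8, 22.1 and 26.8. The gene spans are known only to about 10 kb, and the Nkx2-2 peak at chr2:147020881-147021013, with 28.2 tags, lay 10.9 kb from its span. With peaks up to 20 kb counted as near, the shares were 7 of 8 and 1 of 14.

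The highest surrounding levels were those of the Pax6 peaks at chr2:105510522-105510654, with 40.4 tags, and at chr2:105515717-105515849, with 37.1 tags, above 99.6% and 99.2% of listed peaks. Among the Isl1 peaks at the gene it was 25.1 to 28.5 tags, against 19.96 at the distant Isl1 peak. The median fold over input was 7.43 for the near peaks and 7.39 for the far ones. The local fold, from which the surrounding level was computed, is not a separate measure. For the near peaks it was 4.58 to 8.25, each below the list median of 9.94, and for the far peaks 6.54 to 21.6 (median 12.05). Another listed peak lay within 10 kb for 5 of the 7 near peaks and 4 of the 15 far ones. Tags of a neighbour enter the surrounding level only where they fall in the surrounding 10000 bp. For the near peaks with a neighbour, the spacings were 2.55 and 5.30 kb at Isl1 and 5.20 kb at Pax6. Not every such neighbour need lie in that region. The part of neighbouring peaks in these values was not tested. Over all 22 peaks, 9 had a neighbour within 10 kb, or 40.9% (20.7 to 63.6), against 28.1% of nuclear peaks. That interval also treats peaks as independent draws, which neighbours are not.

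**Figure D4:**
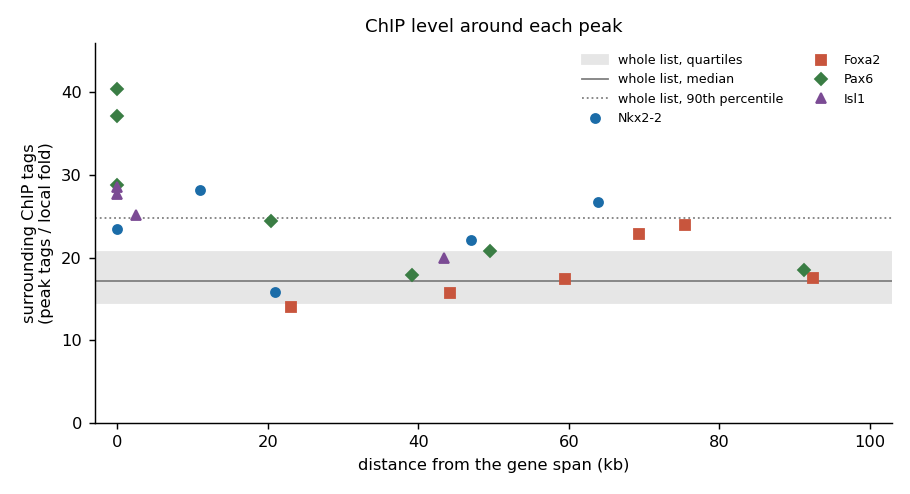
Surrounding ChIP level of each of the 22 peaks (tags of the peak divided by its fold over the surrounding 10000 bp) by distance in kb from the gene span, with the quartiles, median and 90th percentile of the whole list. The 7 peaks within 10 kb of a gene have 23.5 to 40.4 tags, and the 15 farther ones 14.1 to 28.2.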

How the data were processed

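Peaks were called with HOMER findPeaks in factor style on ChIP against input tags, per the file headers, at a false discovery rate of 0.001, 4-fold over input and 4-fold over 10000 bp. Bowtie and mm9 are named in the submitters' processing notes, with no versions stated. The authors scaled the normalized tag signal to a library of 10000000 tags. A second ChIP signal, deposited for the input comparison, steps by 0.788, and division by that step gave whole tags (within 0.1) for 100% of peaks, while the input signal was used as deposited. The fold ratios, the focus ratio (a fraction), the score and the Poisson p-value are as deposited by the authors, per the file headers.

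Windows were those of the rule, and every peak in them and the nearest outside was named. The members and lists were chosen with earlier results of these data known. Counts carry exact Poisson intervals, folds exact conditional intervals and shares Clopper-Pearson intervals at 95%. Interval and window routines were tested on simulated data. Alternatives were other window edges, stricter folds and scores, overlap by any base, joined peaks and 1 added tag. Sequences came from RefSeq (GRCm38.p6), and no mm9 sequence was used here. Scripts ran in Python 3.11.15 with scipy 1.17.1 for the intervals, pandas 2.3.3, numpy 2.4.6, and matplotlib 3.10.9 for plots.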

Additional observations from a re-analysis of the deposited data

How the results depend on the processing

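The 22 peaks became 16 with windows trimmed by 50 kb at both ends, 30 with windows widened by 100 kb, 18 at 5-fold or more, 16 among the higher-scoring part of the list, 17 with peaks within 10 kb joined (chosen after seeing the data) and 10 at 8-fold or more. In the whole list the fold over input had a lower quartile of 4.62 and a median of 5.63. Most listed peaks thus also passed 5-fold, and 24.1% reached 8-fold, so these counts are a description of the members. Counting any overlapping base changed no count. By gene, widening gave 8 peaks for Nkx2-2, trimming left 2 for Foxa2, and 8-fold left 2 for Nkx2-2, 1 for Foxa2 and 1 for Isl1. The Isl1 count also fell to 2 at 5-fold or more, to 2 among higher-scoring peaks and to 2 with peaks joined. The Pax6 count stayed between 6 and 10 under the alternatives run. The median fold of 7.41 was 7.14 with 1 tag added to each side and lay between 6.44 (without Pax6) and 8.36 (without Foxa2) with each gene left out. The median surrounding level of near peaks was 28.4 with peaks up to 20 kb counted as near (chosen after seeing the data). The share of windows of 210 kb with a peak was 53.4% when the tiles were shifted by 0.5 of their length. No paired analysis was possible because ChIP and input have 1 library apiece, and no replicate could be left out. Depth limits the list, as no site under 109 ChIP tags can be in it.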

Other observations

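The focus ratio, which describes how tags of each strand sit about the peak centre, was 0.594 to 0.887 over the 22 peaks (median 0.770, against 0.775 in the whole list). The lowest belonged to the Pax6 peak at chr2:105515717-105515849 and the highest to the strongest Foxa2 peak, at chr2:147825705-147825837. The normalized column, scaled to 10000000 tags, counts tags differently from the ChIP column used against input, and its values are not those tags rescaled. In it the strongest Pax6 peak, at chr2:105560353-105560485, had 14.3, the next Pax6 peak, at chr2:105589444-105589576, had 8.5, and the weakest Isl1 peak, at chr13:117102487-117102619, had 2.9, against a list median of 4.3.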
